A study of Homo sapiens and Mus musculus with 19 samples.

Results

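Of the 19 libraries of the series, 7 came from HepG2, an established cell line derived from a hepatocellular carcinoma. Of these, 5 were made from 1 cell each and 2 from 1000 cells, which are called bulk here. The libraries were assigned by their labels, and the labels give no treatment, passage or culture for them. Bulk DNA was purified with a column kit and taken through an assay that tags CCGG sites by cytosine state, whereas single cells were stained with the live-cell dye Calcein-AM, placed in tubes and taken through its single-cell form, so cell number and protocol cannot be told apart. Each tag comes from an unmethylated, a 5-methylcytosine (5mC) or a 5-hydroxymethylcytosine (5hmC) copy of a site. The 5 single cells and 2 bulk libraries of H1ES, a human embryonic stem cell line, were used only as an outside reference.

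Methylation of the cytosine in a CpG is kept through cell division by DNMT1, which copies the mark onto the new strand, and is set anew by DNMT3A and DNMT3B. TET enzymes oxidise 5mC to 5hmC, a mark that is known to be scarce in dividing cancer cells. Cancer lines often carry long stretches in which methylation is partly lost, while many short CpG-rich promoters stay unmethylated. In a bulk library, an intermediate level at a site can come from cells that differ from each other, from copies that differ within every cell, or from both, and only single cells can show which.

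Each single cell was read far more thinly than bulk. On the autosomes, cells 1, 2 and 4 held 514335, 563185 and 594070 tags, and cells 3 and 5 held 2391873 and 2373241. The bulk libraries held 5848134 and 5033291. A tag was present at 406849 to 455710 sites in cells 1, 2 and 4, at 1034474 in cell 3, at 1022261 in cell 5, and at 1198038 and 1153015 in bulk. Cells 3 and 5 thus stood apart in depth, and they differed in other measures given below beside each result. When every library was thinned to 514335 tags, the cells covered 406751 to 409561 sites and bulk 398542 and 395902. The cells and bulk drew on nearly the same sites, since 92.5% of the sites with a bulk tag had a tag in some cell and 90.7% of the sites with a cell tag had one in bulk. Only 64186 autosomal sites, or 2.90%, had a tag in all 5 cells. Sites with more than 8 tags numbered 17 to 23 in cells 1, 2 and 4, but 4291 in cell 3 and 5675 in cell 5. The most tags at a single site were 136, 163, 879, 152 and 575 in cells 1 to 5. These exceed the several copies of a site that a cell holds, and how they arose was not tested.

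Liver markers mostly carried the HepG2 pattern in the single cells. Of 11 liver markers, 8 had at least 10 bulk tags and 5 cell tags within 1000 bp of a gene start. For genes missing from the promoter table a gene end was used instead, which need not be the promoter. Of the 8, 7 were over 50% unmethylated in the pooled cells and 6 in bulk. The 7 include APOC3, read at both gene ends. In H1ES bulk none of the 8 was above 2.11%. Of 7 stem cell markers, 4 could be read, and 1 of the 4, LIN28B, was over 50% unmethylated in the cells and in bulk, against all 4 in H1ES bulk. Of 5 blood markers, 3 could be read (CD3E, IKZF1 and SPI1), and all 3 were over 50% unmethylated in the cells and in bulk, so this readout does not set HepG2 apart from blood. ALB and AFP, the genes of albumin and alpha-fetoprotein, have no CCGG in that window. TTR, the transthyretin gene, was the liver marker that was methylated in both, with 1 of 16 cell tags and 0 of 34 bulk tags unmethylated. At POU5F1, a core pluripotency factor, 0 of 26 cell tags were unmethylated, which allows a share of up to 11.5%, and bulk had 2 of 40. Both TTR and POU5F1 were read at the gene end with more CCGG.

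Sequences before a start of 4 genes show the kinds of site that were compared. They are the 250 bases before a RefSeq start (GRCh38.p14), with each CCGG, the site read by the assay on both strands, in capitals. They were chosen after their values were seen because they had at least 8 cell tags and stand for different states. A gene can have several RefSeq starts, and only a single one is shown for each gene. HNF4A, a master transcription factor of hepatocytes, is at chr20:44355449-44355698 on the + strand. PAX6, a homeobox factor of the developing eye, is at chr11:31800662-31800911 on the - strand. DPPA5, a gene of early embryos and germ cells, is at chr6:73354277-73354526 on the - strand. GNAS, an imprinted gene for a G protein subunit, is at chr20:58888163-58888412 on the + strand.
HNF4A: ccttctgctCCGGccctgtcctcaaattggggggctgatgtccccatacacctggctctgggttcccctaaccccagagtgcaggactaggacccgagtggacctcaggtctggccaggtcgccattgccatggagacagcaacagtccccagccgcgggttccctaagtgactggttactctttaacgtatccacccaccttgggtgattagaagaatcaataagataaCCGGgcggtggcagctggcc
PAX6: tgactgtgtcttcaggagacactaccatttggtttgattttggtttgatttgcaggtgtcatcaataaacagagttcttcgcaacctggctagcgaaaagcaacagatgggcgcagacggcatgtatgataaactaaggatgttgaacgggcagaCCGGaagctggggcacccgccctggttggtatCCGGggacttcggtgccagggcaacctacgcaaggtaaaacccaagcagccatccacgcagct
DPPA5: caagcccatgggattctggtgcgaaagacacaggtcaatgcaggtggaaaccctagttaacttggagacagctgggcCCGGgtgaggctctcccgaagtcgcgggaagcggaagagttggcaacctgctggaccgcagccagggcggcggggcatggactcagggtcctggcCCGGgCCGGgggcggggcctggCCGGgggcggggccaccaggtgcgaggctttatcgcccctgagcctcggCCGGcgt
GNAS: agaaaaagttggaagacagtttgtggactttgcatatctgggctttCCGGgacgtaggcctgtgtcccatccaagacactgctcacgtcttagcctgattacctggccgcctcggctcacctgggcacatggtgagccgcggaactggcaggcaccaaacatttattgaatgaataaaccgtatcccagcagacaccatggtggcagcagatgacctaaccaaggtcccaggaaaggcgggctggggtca

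The HNF4A stretch was open in HepG2 and closed in H1ES. Its site 240 bases before the start gave 12 unmethylated tags of 12 in the cells, spread over all 5, and 29 of 31 in bulk. Its site 19 bases before the start gave 7 of 12 in the cells, of which cell 3 contributed 5 of 8, against 34 of 36 in bulk. H1ES bulk had 0 of 25 and 0 of 15 at the same sites. The cells thus shared the state of their line but were less uniform than bulk at the second site. This was not so at another HNF4A start, whose stretch at chr20:44400989-44401238 is not printed. There 8 of 8 cell tags were unmethylated, against 16 of 18 in bulk and 0 of 15 in H1ES bulk. At the PAX6 stretch, the site 61 bases before the start was methylated in every HepG2 tag, 0 unmethylated of 8 in the cells and 0 of 12 in bulk, against 9 of 11 in H1ES bulk. Over a wider PAX6 window, given below, HepG2 cells and bulk were near the middle instead. Of the 5 CCGG of the DPPA5 stretch only that 171 bases before the start gave tags. It was mixed in HepG2, with 7 of 14 in the cells and 10 of 16 in bulk, and gave 0 of 19 in H1ES bulk. The GNAS site 203 bases before the start showed mixture inside cells. There, cell 3 had 5 unmethylated tags of 7 and cell 5 had 3 of 10, while cell 1 had 2 of 2 and cell 2 had 0 of 2, and bulk had 7 of 29. Of 33725 such stretches of 250 bases in the RefSeq promoter table, 58.5% contain a CCGG.

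The genome-wide balance of the 3 states was nearly that of bulk in each cell. Unmethylated tags made up 36.9%, 36.2%, 40.4%, 37.2% and 36.6% of the tags in cells 1 to 5, and 39.1% and 38.0% in bulk. The mean was 37.5% ± 1.68 (SD, n = 5 cells) against 38.6% ± 0.80 (SD, n = 2), a difference of -1.09 points that was smaller than the spread among the 5 cells. That spread rests on cell 3, and without it the difference was -1.82 points, with the other 4 cells between 36.2% and 37.2%. Cell 3 was above both bulk libraries and the other 4 cells were below them. Counting error was small, with exact binomial (Clopper-Pearson) intervals at 95% of 36.8 to 37.0% in cell 1 and 40.3 to 40.5% in cell 3, so the 5 cells differed from each other by more than counting error. All intervals in the text cover counting error only.

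The 5mC share mirrored this, at 62.2% ± 1.65 in the cells and 61.2% ± 0.76 in bulk. The 5hmC share was 0.344%, 0.350%, 0.266%, 0.325% and 0.307% in cells 1 to 5 and 0.221% and 0.277% in bulk. The mean of the cells, 0.318% ± 0.034, lay above the bulk mean of 0.249% ± 0.040, but cell 3 fell between the bulk libraries. In H1ES the corresponding unmethylated shares were 4.51% ± 0.354 in 5 cells and 4.49% ± 0.348 in 2 bulk libraries, and the 5hmC share was lower in cells (1.44% ± 0.135) than in bulk (1.61% ± 0.122). With 1 cell per library and no culture named, the 5 cells count as 1 sample and none of these differences was tested.

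**Figure D1:**
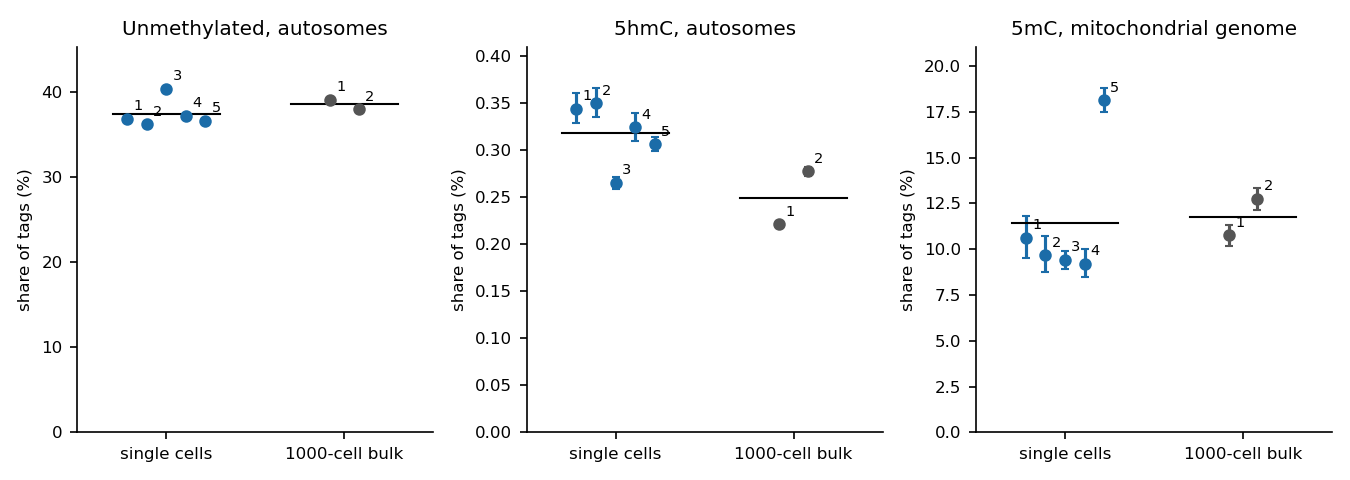
Share of tags (%) that were unmethylated or 5hmC on the autosomes, and 5mC on the mitochondrial genome, in the 5 HepG2 cells and 2 bulk libraries; each point is a library with its number and its exact 95% binomial interval, and lines are group means. Cell 3 has the highest unmethylated share (40.4%) and cell 5 the highest mitochondrial 5mC (18.1%).

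Mitochondrial DNA is known to carry little cytosine methylation and gives a view of tags read as modified where few are expected. At its 23 CCGG sites, 5mC tags made up 10.6%, 9.69%, 9.43%, 9.21% and 18.1% of the tags in cells 1 to 5, and 10.8% and 12.8% in bulk. Cell 5 was far above the other cells, with an interval of 17.5 to 18.8% from 13568 tags. The mitochondrial 5hmC share was between 0% and 0.044% in the cells, and the 0 of 2981 tags in cell 1 allow up to 0.101%. Mitochondrial tags were more frequent in cells, at 5.72 to 9.43 per 1000 autosomal tags, than in bulk at 1.98 and 2.40.

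Site by site, the cells followed the level that bulk showed. Among 459662 autosomal sites with at least 10 pooled bulk tags, those with no unmethylated bulk tag (159702 sites) gave 1.71% ± 0.138 unmethylated tags in the cells (SD, n = 5), and those with only unmethylated bulk tags (34781 sites) gave 88.3% ± 1.72. Sites at 40 to 50% in bulk gave 45.6% ± 1.54, and sites at 70 to 80% gave 74.7% ± 1.60. The rise was thus close to linear up to about 80% and then flattened, since the cells stayed at 87.2% ± 1.80 at sites over 90 but under 100% in bulk. Cell 5 was the lowest cell in all 12 classes and reached 85.5% at the fully unmethylated sites, where the other 4 had 88.0 to 89.9%. H1ES cells gave 1.05% to 10.7% over the same classes.

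**Figure D2:**
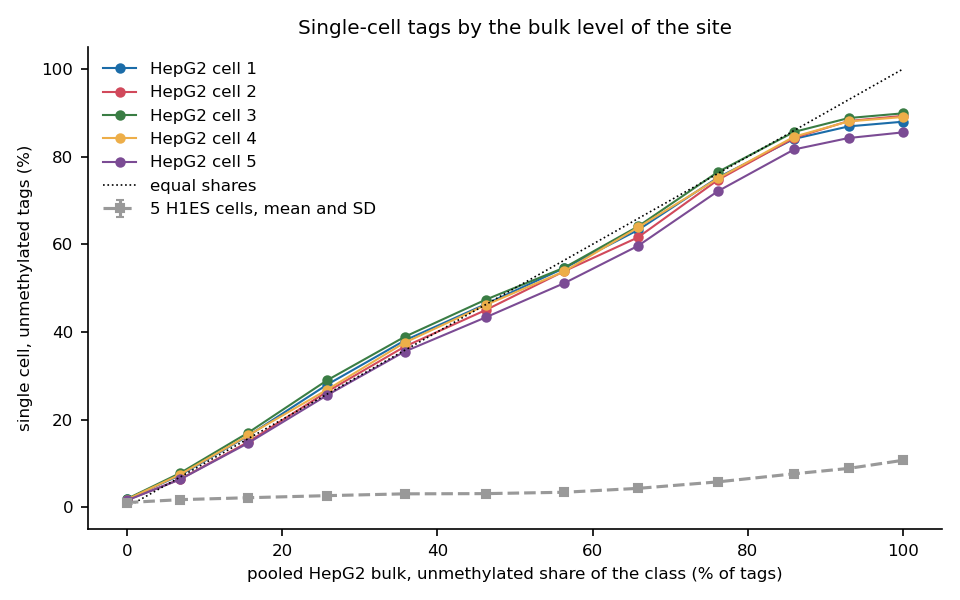
Unmethylated share of single-cell tags (%) against the mean bulk share (% of tags) in 12 classes of sites with at least 10 bulk tags; coloured lines are the 5 HepG2 cells, grey squares the mean ± SD of 5 H1ES cells and the dotted line marks equal shares. The HepG2 cells follow the dotted line and flatten below 90%, whereas H1ES cells stay at or under 10.7%.

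Agreement with bulk was higher at methylated than at unmethylated sites. At 79142 sites that were at least 90% unmethylated in bulk, the share of unmethylated tags was 87.2%, 88.4%, 89.1%, 88.3% and 84.7% in cells 1 to 5, with 5mC making up nearly all of the rest. At 202431 sites that were at least 90% 5mC in bulk, the share of 5mC tags was 96.5%, 96.9%, 96.4%, 96.5% and 97.0%. Cell 5 was lowest at the unmethylated sites and highest at the methylated ones, in the direction of its mitochondrial 5mC share, and whether the 2 are linked was not tested. H1ES cells gave 97.4 to 97.7% 5mC at the same methylated sites, above every HepG2 cell. At the unmethylated sites they gave 9.08 to 10.6%. Only the unmethylated sites thus set HepG2 cells apart from cells of the other line.

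Because sites chosen for an extreme level in a library regress in any other, each bulk library was also used to choose the sites and the other read in the same way as the cells, a comparison added after the data were seen. At sites unmethylated in bulk 1, bulk 2 gave 90.03% and the cells 86.9% ± 1.70. With the roles exchanged, bulk 1 gave 90.3% and the cells 86.9% ± 1.61. The cells thus differed from a held-out bulk library by -3.17 and -3.36 points, and all 5 cells were below it in both directions. At 5mC sites the held-out libraries gave 96.7% and 96.5% and the cells 96.5% ± 0.238 and 96.4% ± 0.209, differences of -0.26 and -0.10 points that were about the spread among cells or less.

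The surroundings of a site mattered more at methylated than at unmethylated sites. At 5mC sites of bulk 1, agreement of the cells fell from 97.8% ± 0.126 in stretches of 100 kb under 20% unmethylated in bulk to 92.0% ± 1.13 in stretches of 60% or more, and bulk 2 fell alike from 98.0% to 91.7%. At unmethylated sites, the cells were between 86.2% and 88.2% in all 4 classes of stretch and bulk 2 between 89.2% and 90.7%. Crowding of CCGG sites made little difference, since the cells' agreement at unmethylated sites was 86.9% ± 1.88 where no other CCGG lay within 500 bp and 89.3% ± 1.48 where 10 or more did.

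Tags that went against bulk were partly repeated within a cell. At bulk-unmethylated sites, 12.8%, 11.6%, 10.9%, 11.7% and 15.3% of the tags in cells 1 to 5 were modified. Given such a tag, another tag of the same cell at the site was also modified in 35.9%, 33.1%, 20.8%, 32.4% and 20.9%, against 12.3 to 15.3% for a tag of another cell. The rate in other cells at such sites was little above their rate at all bulk-unmethylated sites, 11.3 to 13.98%. So the same modified site recurred in the same cell and hardly in other cells. Whether 2 tags of a site can be copies of 1 molecule, which the sources used here do not state, was not tested.

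Bulk-methylated sites showed more recurrence between cells. Unmethylated tags made up 2.99%, 2.66%, 3.19%, 3.02% and 2.60% there. Given such a tag, another tag of the same cell was unmethylated in 22.7%, 24.0%, 21.3%, 21.4% and 12.7%. A tag of another cell was unmethylated in 9.99 to 11.2% of cases, where their base rate was 2.72 to 3.06%. Unmethylated tags thus fell more often at sites where another cell also had one.

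Single cells allow the question how far an intermediate bulk level is a mix of cells that are each of 1 kind to be put to the data. There were 43831 sites at 40 to 60% unmethylated with at least 10 bulk tags, called intermediate sites below. At these, 2 tags of the same cell were of the same kind in 58.4%, 56.6%, 56.0%, 57.2% and 53.6% of pairs in cells 1 to 5, and a tag of the cell and a tag of another cell in 52.6 to 53.0%. The between-cell part F is the excess of the former over the latter, divided by the room left, so that F is 1 when every cell is of 1 kind and 0 when each cell is as mixed as the pool. It was 0.117, 0.084, 0.065, 0.090 and 0.014, with a mean of 0.074 ± 0.039 (SD, n = 5). By this measure the tags of each cell were nearly as mixed as those of the pool, although all 5 values were above 0. A cell holds several copies of each site, and copies that differ within a cell lower F. Cell 5, with the lowest F, also had the most modified tags at bulk-unmethylated sites (15.3%). Tags read in the wrong state would lower F as well, and their part was not tested. Tags copied from 1 molecule would raise it, and their part in the positive values was not tested. Bulk libraries, treated as if they were cells at 13198 sites chosen on the pooled cells, gave -0.0014 and 0.0011.

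The counts of mixed sites restate the agreement within cells in raw tags and are no separate evidence. With exactly 2 tags at an intermediate site, 42.0%, 43.8%, 43.4%, 42.7% and 46.8% of sites in cells 1 to 5 had both an unmethylated and a modified tag, and with 4 tags 71.1% to 81.9% did. With 8 tags, read only in the deeper cells, 94.7% of 415 sites in cell 3 (interval 92.1 to 96.6%) and 96.6% of 436 in cell 5 were mixed. Whether those tags each came from a separate copy of the site was not tested. The share of mixed sites rises with the number of tags in any mixed pool. In the bulk libraries it was 55.7% and 51.6% with 2 tags and 99.98% and 99.89% with 8, but these sites were chosen on bulk tags. At sites at least 90% 5mC in bulk, only 3.82% to 5.24% of sites with 2 tags were mixed, and at sites at least 90% unmethylated 15.6% to 23.4% were, cell 5 again being the highest.

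**Figure D3:**
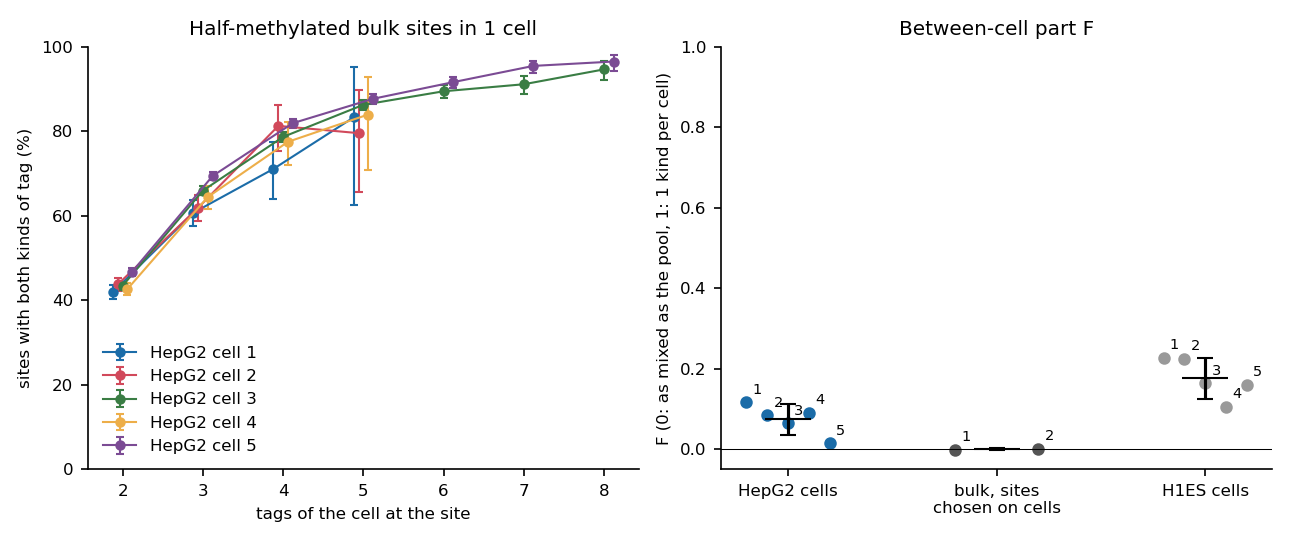
Left, share of intermediate sites (%) with both an unmethylated and a modified tag in a cell, by the number of tags of the cell at the site, with exact 95% binomial intervals; right, the between-cell part F in each HepG2 cell, each bulk library and each H1ES cell, with the mean and SD. Mixed sites rise from 42.0 to 46.8% at 2 tags to 94.7 and 96.6% at 8 tags, and F is 0.014 to 0.117 in HepG2 cells.

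The mean F did not depend strongly on the number of tags at a site, being 0.071 ± 0.038 with 2 tags, 0.090 ± 0.051 with 3 and 0.062 ± 0.054 with 4. Between libraries it did differ with depth. The deeper cells 3 and 5 had the lowest F (0.065 and 0.014), against 0.084 to 0.117 in cells 1, 2 and 4, and the part of depth was not tested. At other bulk levels the mean F was 0.123 ± 0.042 at 10 to 20% and 0.085 ± 0.061 at 60 to 70%. At the least methylated sites the cells diverged, with 0.115 ± 0.114 over 90 and under 100% and 0.144 ± 0.131 at 100%. Cell 5 was at -0.087 in both and the highest cells at 0.181 and 0.232. In cell 5, 2 of its own tags agreed in 75.1% and 76.8%, less than with a tag of another cell (77.1% and 78.7%). Its unmethylated share was also the lowest there, at 84.2% and 85.5%. F does not separate such a difference in level from mixture, so these values are not a between-cell part. By surroundings, F was 0.101 ± 0.043 at intermediate sites in stretches of 100 kb under 20% unmethylated. In those of 60% or more it was 0.044 ± 0.041. The SDs overlap, but each of the 5 cells was lower in the latter stretches. Cells 1 to 5 had 0.123, 0.130, 0.096, 0.129 and 0.028 in the former and 0.098, 0.003, 0.053, 0.064 and 0.004 in the latter. Intermediate sites themselves were unevenly placed, making up 3.11% of the sites in the former stretches and 12.5% in the latter, with 14.7% in stretches of 40 to 60%. In H1ES cells, at 4219 sites intermediate in H1ES bulk, F was 0.176 ± 0.051, and only the highest HepG2 cell (0.117) exceeded the lowest H1ES cell (0.106).

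Few intermediate sites were read in all 5 cells, but they show how the cells combined. At 4129 such sites, with 1 tag taken from each cell, all 5 tags were unmethylated in 4.46% and all 5 modified in 5.23%, and 2 or 3 of 5 were unmethylated in 28.7% and 27.9%. At 5936 sites at least 90% unmethylated in bulk, 55.3% had 5 of 5 unmethylated, and at 23197 sites at most 10% unmethylated, 88.7% had 0 of 5.

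Neighbouring intermediate sites agreed within a cell only over very short distances. Pairs of sites 1 to 100 bp apart were of the same kind 18.4 points more often within a cell than between cells (± 7.99, n = 5), but from only 33 to 112 pairs a cell, and bulk gave 4.72 points. Over 100 and up to 1000 bp the excess was 1.59 points ± 1.37, with 0.097 in bulk, and it changed sign when at least 20 bulk tags were asked for (-1.37 points). Over 1000 and up to 5000 bp it was 0.121 ± 0.818, and over 20000 and up to 100000 bp 0.086 ± 0.136, so that no excess beyond the spread among cells was found past 1000 bp. Pairs at 1 to 100 bp can be cut from the same fragment, and their part in the result was not tested.

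Over long stretches, single cells carried the bulk methylation map. In 1589 autosomal bins of 1 Mb with at least 100 tags in each of the 7 libraries, the unmethylated share ran from 6.06% to 76.9% in bulk. Across bins, each cell correlated with pooled bulk at Pearson's r of 0.966, 0.965, 0.991, 0.967 and 0.990 in cells 1 to 5, the pooled cells at 0.995 (Spearman's rho 0.995) and bulk 2 with bulk 1 at 0.995. Bins are not independent replicates, the libraries share base composition and site density, and cells 3 and 5 have the lower counting error. H1ES cells gave r between -0.028 and 0.016 with HepG2 bulk over the same bins, and HepG2 cells gave -0.060 to -0.036 with H1ES bulk. The SD over bins of the difference from bulk was 3.55, 3.59, 1.87, 3.47 and 2.05 points in cells 1 to 5, where counting alone gives 3.26, 3.14, 1.64, 3.16 and 1.63.

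**Figure D4:**
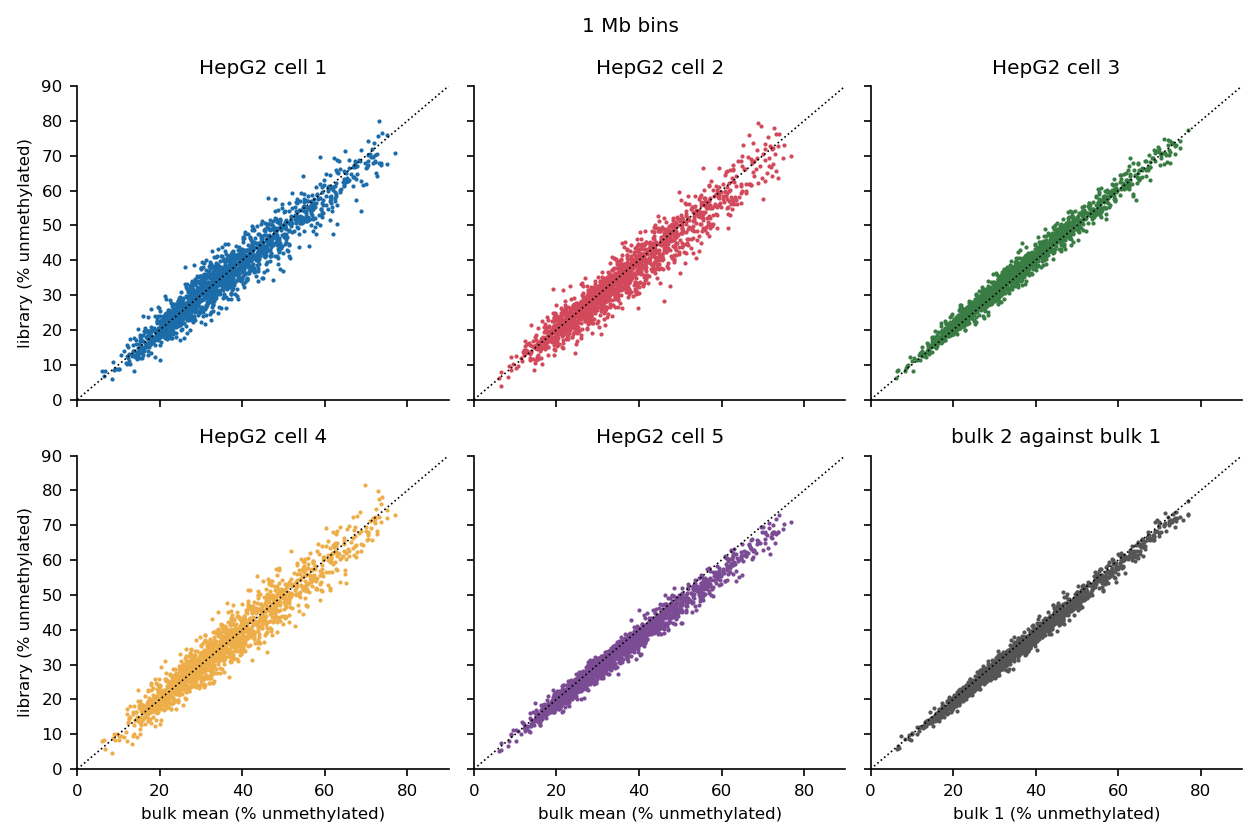
Unmethylated share (%) of 1589 bins of 1 Mb in each HepG2 cell against the mean of the 2 bulk libraries, and of bulk 2 against bulk 1 (last panel); each point is a bin and the dotted line marks equal shares. Cells 3 and 5, with most tags, scatter least (r of 0.991 and 0.990), and cell 5 falls under the line in the least methylated bins.

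No bin was far from bulk in the mean of the cells. The share of bins over 10 points from bulk was 0%, and the differences ran from -7.29 to 5.75 points. In 24 bins (1.51% of those measured) all 5 cells were above both bulk libraries, and in 56 (3.52%) all 5 were below. The cells were slightly compressed at the open end of the map. With the bins ranked by bulk level into 4 equal sets, the cells differed from bulk by 0.14 points in the most methylated set and by -1.36 points in the least methylated. Of 256 bins over 50% unmethylated in bulk, cells 1 to 5 had 219, 208, 247, 219 and 203 over 50%, and 164 were over 50% in all 5 cells.

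The largest falls and rises were moderate. The bin chr9:27000001-28000000 had 43.8%, 40.6%, 51.7%, 50.4% and 45.5% in cells 1 to 5 against 55.3% and 52.1% in bulk. The bin chr11:48000001-49000000 had 38.9% ± 7.47 in the cells against 46.1% in bulk, but cell 3, at 49.0%, was above both bulk libraries there, and it was also among the 5 most variable bins. The other large falls were at chr11:4000001-5000000 (-6.43 points, cell 3 again above both bulk libraries), chr2:149000001-150000000 (-6.34) and chr6:19000001-20000000 (-6.09). The largest rise was at chr3:130000001-131000000, with 57.8%, 49.1%, 49.3%, 54.5% and 49.8% in the cells against 45.9% and 46.8% in bulk, and all 5 cells were above bulk. It was followed by chr5:143000001-144000000 (5.28 points), chr5:96000001-97000000 (4.48), chr12:129000001-130000000 (4.39) and chr4:49000001-50000000 (4.37), where in the last 2 a cell was below both bulk libraries. All of these bins were between 1.11% and 4.28% in H1ES bulk.

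In 4 of the 5 most variable bins, both the lowest and the highest cell were among the thinly read cells 1, 2 and 4. The most variable bin, chr8:46000001-47000000, had 54.1%, 79.5%, 70.9%, 62.7% and 65.4% in cells 1 to 5 around a bulk mean of 68.8%. At chr2:53000001-54000000 the cells ran from 24.7% in cell 1 to 45.0% in cell 4 around 34.1% in bulk. At chr1:181000001-182000000 they ran from 47.6% in cell 1 to 68.1% in cell 4, and at chr1:209000001-210000000 from 48.6% in cell 4 to 69.6% in cell 1. Over all bins, the median SD among cells beyond counting was 0.80 points.

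Gene promoters kept the side of 50% that bulk had in most cases. Of 281 genes in 12 lists chosen for this line, 200 had at least 10 bulk tags and 5 pooled cell tags, and in 174 of them (87.0%) cells and bulk were on the same side. Over all protein-coding genes measured this way the share was 88.9% (11534 of 12978), so the lists did not stand apart. Genes missing from the promoter table were read at whichever gene end held more CCGG.

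Hepatocyte genes kept the bulk side, as most genes did. All 11 measured hepatocyte transcription factors were on it, all of them over 50% unmethylated in bulk. Over all measured protein-coding genes with bulk over 50%, 8539 of 9374 were on the bulk side, so the count does not set these factors apart. Their median was 85.0% in cells and 90.9% in bulk. At HNF4A, 3 of 3, 5 of 6, 16 of 26, 8 of 10 and 24 of 26 tags were unmethylated in cells 1 to 5, together 78.9% (interval 67.6 to 87.7%), against 84.1% of 176 bulk tags and 2.11% in H1ES bulk. Every cell was thus mostly unmethylated there, cell 3 least. At FOXA3, a forkhead factor of liver and gut, all 22 cell tags were unmethylated and 98.0% of bulk tags. FOXA1, a pioneer factor that opens liver enhancers, had 91.4% in cells and 95.5% in bulk, and CEBPB, a factor of the acute phase response, 85.0% and 100%. These 3 were also open in H1ES bulk, at 87.9% to 94.9%, unlike HNF4A.

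Of secreted liver proteins, 22 of 23 measured promoters were on the bulk side, beside 88.9% over all measured protein-coding genes. APOH, a plasma phospholipid-binding protein, had 24 of 31 cell tags unmethylated (77.4%, interval 58.9 to 90.4%) against 89.5% in bulk and 0% in H1ES bulk. F2, which encodes prothrombin, had 22 of 22 and 92.6% in bulk. SERPINA1, the main protease inhibitor of plasma, was intermediate in both, at 64.7% and 60.3%, and its cells ran from 1 of 4 tags in cell 1 to 8 of 9 in cell 3. RBP4, the plasma carrier of retinol, had 85.7% and 91.7%. APOC3, an inhibitor of lipoprotein lipase, was the exception, with 54.5% in cells (interval 36.4 to 71.9%) against 28.6% in bulk, read at both gene ends. Among liver enzymes 11 of 12 were on the bulk side, including ASS1 of the urea cycle (94.1% and 97.6%), CYP27A1 of bile acid synthesis (81.0% and 78.9%) and TAT, which degrades tyrosine (83.3% and 80%). CPS1, the entry enzyme of the urea cycle, was mostly methylated in both (25.0% and 33.3%).

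Pluripotency genes were on the bulk side in 14 of 14, beside 88.9% over all measured protein-coding genes. ZFP42, a zinc finger gene of naive stem cells, had 5 of 28 cell tags unmethylated (17.9%) against 19.1% in bulk and 83.1% in H1ES bulk, and no cell was over 27.3%. L1TD1, an RNA-binding protein of stem cells, had 26.3% and 25.5% against 81.1% in H1ES bulk. DPPA5 was the reverse of these, with 58.8% in cells, 63.0% in bulk and 0% in H1ES bulk over the wider window. SALL4, a stem cell zinc finger factor, had 58.3% in cells and 82.4% in bulk.

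Genes with intermediate bulk levels were intermediate in the cells as well. PAX9, a developmental regulator, had 46.5% of 86 cell tags unmethylated and 46.6% of 146 bulk tags, with 42.1% to 62.5% in the single cells. RBFOX3, a neuronal splicing factor, had 73.1% of 193 cell tags and 71.2% of 299 bulk tags, with 69.7% to 78.9% in the single cells and 7% in H1ES bulk. TEX101, a germ cell surface protein, had 34.5% and 30.8%. Every cell at these 3 promoters held both kinds of tag, but each window pools many CCGG sites, so that sites of different state in a cell and mixed sites cannot be told apart here. HOXA3 (42.9% and 28.7%), NKX2-2 (62.3% and 72.7%) and TFAP2A (71.2% and 68.5%) were likewise intermediate in both.

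Imprinted genes normally carry methylation on the copy from a given parent. GNAS had 34.7% in cells and 36.0% in bulk, with 25.0% to 50% in the single cells. L3MBTL1 had 36.2% and 42.1%, MEST 26.9% and 25.4%, and INPP5F 43.2% and 57.9%. Of 17 measured imprinted genes 13 were on the bulk side, and 2 of the 5 with bulk over 50% were, as was 1 of 4 such germline genes, against 8539 of 9374 over all genes. Of those at or under 50% in bulk, 11 of 12 imprinted and 10 of 10 germline genes were on the bulk side. Over all genes this was 2995 of 3604. The list counts are too small to set these genes apart.

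The remaining lists were on the bulk side in 23 of 27 HOX and Polycomb targets, 17 of 21 genes known for methylation in liver tumours, 11 of 14 germline, 12 of 15 blood, 11 of 14 neural, 13 of 15 DNA modification and 16 of 17 housekeeping genes. CDKN1C, a cell cycle inhibitor, was methylated in both (15% and 8.82%) and SOCS3, a brake on cytokine signals, was near the middle (43.2% and 54.2%). DNMT3B, a de novo methyltransferase, had 0 unmethylated of 32 cell tags, which allows up to 9.38%, and 2.17% in bulk. DNMT3A had 42.3% and 65.8%, TET3, a 5mC oxidase, 25.0% and 23.6%, and APOBEC3B, a cytidine deaminase, 45.7% and 13.5%. Housekeeping promoters were mostly open, with 4 of 17 over 20 points from bulk. The farthest was GUSB, a lysosomal enzyme, with 5 of 14 cell tags (35.7%) against 81.8% of 11 bulk tags. The promoters with the most tags were closer, with GAPDH, a glycolytic enzyme, at 91.2% and 92.5%, RPLP0, a ribosomal protein, at 85.4% and 95.6%, and HSP90AB1, a chaperone, at 83.9% and 94.05%. The 26 genes on the other side included APOC3, SOCS3, DNMT3A, INPP5F and also PAX6 over its wider window (56.1% in cells and 46.5% in bulk). Some rest on few tags, as for DDX4 of germ cells with 4 of 10 against 87.0% in bulk.

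Gene bodies, taken as the gene without its outer 1000 bp at each end, followed bulk closely. Of 3459 protein-coding gene bodies with at least 20 tags in every cell and 100 in bulk, 0% were over 20 points from bulk, and cells and bulk correlated across genes at r = 0.994. In 76 genes (2.2%) all 5 cells were above both bulk libraries and in 123 (3.56%) all were below.

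The largest rise was in BCL2, the founding anti-apoptotic gene, with 80%, 66.7%, 65.4%, 61.5% and 59.7% unmethylated in cells 1 to 5 against 53.6% and 55.2% in bulk, a difference of 12.3 points. It was followed by ANKRD33B (52.4% ± 7.72 against 40.8%), KLF15, a zinc finger factor of fasting metabolism (34.4% ± 6.61 against 25.4%), IQANK1 (46.0% ± 6.25 against 37.0%), HRH1, the H1 histamine receptor (65.7% ± 3.38 against 57.2%), and RASSF2, a RAS effector (66.8% ± 2.23 against 59.1%). All 6 were between 1.39% and 6.68% in H1ES bulk. The largest fall was in MOB3B, with 33.3%, 28.0%, 48.8%, 38.1% and 53.3% against 54.6% and 55.9%, a difference of -14.9 points. MOB3B lies in the bin of chromosome 9 with the largest fall, and that bin counts the same tags, so it adds no separate evidence. The MOB3B values rest on 24, 25, 125, 21 and 90 tags in cells 1 to 5. The lowest came from the cells with the fewest tags, and the better read cells had 48.8% and 53.3%. The means give each cell equal weight. Among the rises, the 80% of BCL2 in cell 1 likewise came from only 20 tags. The next were SLC12A5, a neuronal chloride transporter (55.5% ± 8.83 against 67.9%), MINDY4 (42.8% ± 5.12 against 53.3%), NLRP7 (42.0% ± 11.8 against 52.3%), NPIPB2 (37.1% ± 7.56 against 46.9%) and ADAM19, a membrane protease (17.2% ± 5.75 against 27.0%). NPIPB2 belongs to a family of near-identical copies, so its tags could be misplaced.

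The 6 bodies that varied most had their lowest and highest values in cells 1, 2 and 4, with 20 to 37 tags each. TRPV3, a skin ion channel, had 4.76%, 34.5%, 43.6%, 65.2% and 34.9% in cells 1 to 5 around 34.4% in bulk. SLC16A5, a carboxylate transporter, ran from 9.52% in cell 2 to 63.6% in cell 4, and GRIA1, a glutamate receptor subunit, from 37.8% in cell 2 to 90% in cell 1. FAM13B was at 48.0% in cell 1 and 6.90% to 20.7% in the others. ZNF511-PRAP1 ran from 23.1% in cell 1 to 65.2% in cell 2, and DNAI2, a dynein chain of cilia, from 35.0% to 76.7% in the same cells. The deeper cells 3 and 5 stayed within 10 points of the bulk mean in all 6 genes. The median gene had no variation among cells beyond counting.

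The scarce 5hmC of the cells was more frequent at sites that had 5hmC tags in bulk. Cells had 0.284% 5hmC tags at sites without a bulk 5hmC tag (443528 sites), 0.550% at sites with 1 (15437 sites) and 1.43% at sites with 2 or more (697 sites, 145 of 10118 tags, interval 1.21 to 1.68%). Each cell rose in this order, from 0.249 to 0.328% at the first kind of site to 1.31 to 1.93% at the last. The first kind includes unmethylated sites, which hold little 5hmC. Over the pooled cells its share was 0.0497% at sites 100% unmethylated in bulk and 0.412% at sites with no unmethylated bulk tag. The part of the methylation level in the rise was not tested. Sites with a 5hmC tag in 1 cell numbered 18229, with 341 in 2 cells, 6 in 3, 1 in 4 and 0 in all 5. With so few 5hmC tags and few sites read in several cells, these counts do not show how often cells share 5hmC. As a share of all modified tags, 5hmC was 0.446 to 0.549% in the cells and 0.364% and 0.448% in bulk.

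The number of tags per chromosome differed more between cells than between bulk libraries. Relative to the mean share in bulk, chromosome 11 had 1.16 in cell 1 and 1.24 in cell 3 against 0.984 to 1.02 in the other cells. In windows of 10 Mb, cell 3 was over 1.1 in 14 of 14 windows of chromosome 11 (1.16 to 1.42) and cell 1 in 9 of 14. Chromosome 14 had 0.837 in cell 1, where 9 of 9 windows were under 0.9, and chromosome 2 had 0.904 in cell 5. Chromosome 19 had 1.119 in cell 1 and 1.17 in cell 4. Over all 276 windows the SD was 0.056 to 0.109 in the cells and 0.0077 in both bulk libraries. The bulk libraries form their own reference mean, which makes their SDs equal and lowers them. The cells also have fewer tags, so the SDs of cells and bulk are not on the same footing. The unmethylated share of chromosome 11 was 41.7% in cell 3 and 38.7% in cell 1, beside 40.4% and 36.9% over all autosomes. Leaving chromosome 11 out gave a mean F of 0.072, close to the 0.074 with it.

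**Figure D5:**
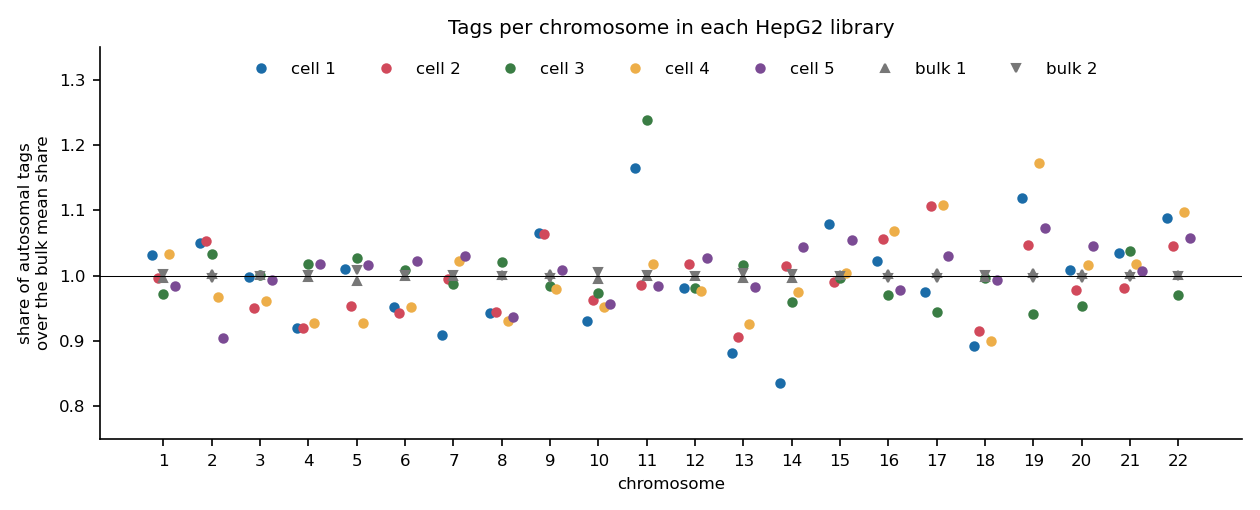
Share of autosomal tags on each chromosome relative to the mean share in the 2 bulk libraries, for the 5 HepG2 cells (circles) and the 2 bulk libraries (triangles). Chromosome 11 stands at 1.16 and 1.24 in cells 1 and 3, and chromosome 14 at 0.837 in cell 1.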

How the data were processed

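Tags of CCGG sites were taken from 5 HepG2 single cells and 2 HepG2 libraries of 1000 cells, with 7 H1ES libraries as an outside reference, and the other libraries of the series were not used here. The authors deposited, for each site on hg38, the fraction of unmethylated, 5mC and 5hmC tags and the tag count. The tables have no header, and the rarer modified column was taken as 5hmC, on which all 5hmC values rest. The submitters' processing notes name Bowtie2 2.3.4.1, cutadapt 1.5 and UMI-tools 0.5.4, and how tags were counted is not given in the sources used here. Fraction times count was whole in the 14 deposited tables used, at most 0.00141 away, so tags of each kind were recovered by rounding.

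Samples were grouped by their titles. Autosomal sites were used (chromosome M apart), site states needed 10 pooled bulk tags, and bins, promoters and gene bodies the minimums given with each result. No test between cells and bulk was run, because each single-cell library is 1 cell with no culture named, so the 5 cells count as 1 sample. Errors are SDs over cells and exact binomial intervals at 95%, and a count of 0 allows up to 3 counts. Tags from PCR are not independent molecules, so intervals cover counting error only. Depth ranged from 514335 to 2391873 autosomal tags in cells.

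The cells, gene lists and measures were chosen with earlier results of these data known. Named promoters were HNF4A, ALB, AFP, APOC3 and TTR and up to 4 genes per list with the most cell tags. The marker genes, DDX4, GUSB and PAX6 were named outside that rule, the last 3 after their values were seen. Some items are not reported here. Named bodies were the 6 largest rises and falls with all cells outside the bulk range and the 6 most variable, and named bins the 5 largest each way and the 5 most variable. Variability was the SD over cells with the binomial variance taken off. Promoter sequences are from RefSeq, and all 69333 CCGG in its autosomal windows fell on a listed site. Python 3.11.15 with numpy 2.4.6, scipy 1.17.1, pandas 2.3.3 and matplotlib 3.10.9 was used. F, the neighbour measure and the bin comparison were tested on simulated data. Alternatives varied the site, tag, bin and window minimums and left out each library.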

Additional observations from a re-analysis of the deposited data

Results flagged for a closer look

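Over 35 results with a value in each of the 5 HepG2 cells, 6 had a cell whose gap to the nearest other cell was over 0.71 of the whole range, Dixon's 95% critical value for 5 samples. Chance flags about 1 in 20 groups, and several of the 6 are not independent of each other. Cell 3 stood apart in the unmethylated share (40.4%) and, as its mirror, in the 5mC share (59.3%). Cell 5 stood apart in the mitochondrial 5mC share (18.1%) and in how often an unmethylated tag at a bulk-methylated site was repeated in the same cell (12.7%). Cell 4 had the most mitochondrial tags, 9.43 per 1000 autosomal tags. Cell 3 had a relative tag share of 1.02 on chromosome 8, a small departure from the other cells.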

How the results depend on the processing

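No paired analysis was possible because the results come from no test. Of 137 recomputed values, 124 stayed within the spread among cells or within 1.5 times the count reported. The neighbour excess over 100 and up to 1000 bp turned from 1.59 to -1.37 points with at least 20 bulk tags, and the cause was not tested. Agreement at bulk-unmethylated sites was 94.3% by majority at sites with 2 or more tags. Agreement at bulk-methylated sites was 97.0% with at least 20 bulk tags, 95.1% and 97.9% at sites at least 80% and 100% of 1 kind, 99.2% by majority and 96.4% at sites with 1 tag. Bins of 500 kb gave 1 bin over 10 points. Windows of 500 bp gave 115 list promoters on the bulk side, of 125 measured (92.0%). Gene bodies over 20 points numbered 1 with at least 10 tags a cell, and 14 passed a limit of 10 points. The difference in unmethylated share was -2.34 points with each site counted once, -1.74 at sites with at least 10 bulk tags and -0.49 with cells pooled.

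Leaving out each library in turn gave differences of -1.82 (without cell 3) to -0.52 points (without bulk 1) in the unmethylated share, 0.48 to 1.74 in 5mC and 0.041 to 0.097 in 5hmC. It gave 86.9 to 88.2% and 96.4 to 96.7% agreement, r of 0.993 to 0.995, 0 to 0 bins over 10 points, F of 0.065 to 0.085, neighbour excesses of 1.11 to 1.98 points, 0 to 0 gene bodies and 114 (without bulk 1, of 133 measured) to 172 promoters. Alternatives chosen after seeing the data were sites with tags in cells and bulk (-1.06 points) and F without chromosome 11 (0.072). Depth limits values at single sites, since 76.2 to 78.7% of the covered sites of cells 1, 2 and 4 had 1 tag.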
